A study of Mus musculus with 28 samples.

Results

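The 58 genes for splicing factors and small nuclear ribonucleoprotein (snRNP) proteins were followed in mouse hippocampus after the histone deacetylase inhibitor trichostatin A (TSA), after exposure to novelty, and in cbp+/- animals, heterozygous for the gene for CBP. The members are all genes whose symbol begins with Srsf, Sf3, Hnrnp, Prpf or Snrp and that have a transcript cluster (the set of probes that the array assigns to 1 transcript) annotated to that gene alone. There are 58 of them among 19938 genes measured: 17 Hnrnp, 12 Prpf, 10 Srsf, 10 Snrp and 9 Sf3 genes. They come from 76 transcript clusters. For the 10 genes with several clusters, the one with the highest mean was used. Another 17 clusters carry several symbols of which 1 or more matches (Hnrnpa1, Hnrnpa3, Hnrnph3, Snrpf and Snrpn among them) and were left out. The mean of each of the 58 members over all arrays was above 6.10, the median of the gene means, on the deposited log2 scale.

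Splicing removes introns from pre-mRNA in the spliceosome, which is built from snRNPs. Most snRNPs pair a small nuclear RNA with a ring of Sm proteins (SNRPB, SNRPD, SNRPE, SNRPG) and with proteins of their own. SNRPA and SNRPC belong to the U1 snRNP, which recognises the 5′ splice site. SNRPA1, SNRPB2 and the SF3A and SF3B complexes belong to the U2 snRNP, which binds the branch point. Many PRPF proteins belong to the tri-snRNP and to the complexes that activate the spliceosome. SR proteins (SRSF) mostly bind exonic enhancers and favour inclusion of the exon, while hnRNP proteins coat nascent RNA and often repress it. Many SR protein genes hold ultraconserved poison exons, whose inclusion sends the transcript to decay and so limits the protein's own level. In neurons, alternative splicing shapes ion channels, receptors and synaptic adhesion proteins.

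The animals were 3 month old C57/DBA F1 hybrid females, either wild type or cbp+/- littermates. CBP is a lysine acetyltransferase and transcriptional coactivator, so that its loss and TSA act on opposite sides of histone acetylation. Mice were injected intraperitoneally with DMSO/saline as vehicle or with 2.4 mg/kg of TSA. Hippocampi were collected 75 min after the TSA dose. They stayed in the standard cage or spent 1 h alone in an unfamiliar box with objects, which for TSA-treated mice began 15 min after the injection. Each of the 8 groups combines genotype, housing and drug. The control group of each genotype in the standard cage had 5 arrays, of which replicates 1 and 2 were naive (not injected) and replicates 3 to 5 received vehicle. The other 6 groups had 3 arrays each, which gives 28 arrays. The control arrays also served another experiment run at the same time. Each array held pooled hippocampal RNA of 3 or 4 mice, and the pools are the replicates. The labels call the pools independent biological replicates.

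Promoter sequences are shown for the 5 genes that differed between arrays with and without TSA when array set was a block (described with the values). RefSeq promoter windows (assembly GRCm38.p6) were found for 51 of the 58 members, as 68 windows of 250 bases before a transcript start. Several short motifs were counted in them. The GC box (GGGCGG, or CCGCCC on the other strand) was in 44 of the 68 windows (64.7%) against 32.7% of all 32851 windows. The ETS motif (CCGGAAG, or CTTCCGG) was in 21 windows (30.9%) against 6.91% of all. The median GC content was 60.4% in members' windows and 52.4% in all windows. The cAMP response element TGACGTCA was in 2.94% of members' windows and 1.55% of all, and TATAAA was in 7.35% and 12.4%. The shares were counted over the whole windows. A printed stretch is the gene's first window and was shortened where the window ran past the first base of the gene (to 246 bases for Srsf5 and 143 for Srsf4). The printed stretches lie on the plus strand and have GC boxes and ETS motifs in capitals. They are at chr2:162931258-162931507 (Srsf6), chr12:80945249-80945494 (Srsf5), chr4:131873387-131873529 (Srsf4), chr11:4160104-4160353 (Sf3a1) and chr6:117900090-117900339 (Hnrnpf).
Srsf6: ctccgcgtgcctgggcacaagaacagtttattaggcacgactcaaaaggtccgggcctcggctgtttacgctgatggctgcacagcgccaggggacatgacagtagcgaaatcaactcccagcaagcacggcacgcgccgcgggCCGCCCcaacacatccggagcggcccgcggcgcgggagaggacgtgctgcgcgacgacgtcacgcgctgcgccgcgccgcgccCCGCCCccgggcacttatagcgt
Srsf5: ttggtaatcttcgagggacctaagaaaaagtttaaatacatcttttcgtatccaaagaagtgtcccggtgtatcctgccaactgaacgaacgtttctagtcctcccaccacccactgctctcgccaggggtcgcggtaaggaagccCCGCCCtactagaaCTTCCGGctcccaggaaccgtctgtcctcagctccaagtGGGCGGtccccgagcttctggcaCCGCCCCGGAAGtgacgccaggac
Srsf4: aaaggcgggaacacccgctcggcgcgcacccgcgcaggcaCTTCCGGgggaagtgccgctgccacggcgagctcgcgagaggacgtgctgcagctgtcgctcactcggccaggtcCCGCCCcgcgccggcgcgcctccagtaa
Sf3a1: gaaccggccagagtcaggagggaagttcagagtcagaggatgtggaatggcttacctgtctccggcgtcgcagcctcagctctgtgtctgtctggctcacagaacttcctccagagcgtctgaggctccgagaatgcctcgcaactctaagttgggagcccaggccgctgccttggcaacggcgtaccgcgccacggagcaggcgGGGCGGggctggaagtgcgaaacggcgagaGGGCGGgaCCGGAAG
Hnrnpf: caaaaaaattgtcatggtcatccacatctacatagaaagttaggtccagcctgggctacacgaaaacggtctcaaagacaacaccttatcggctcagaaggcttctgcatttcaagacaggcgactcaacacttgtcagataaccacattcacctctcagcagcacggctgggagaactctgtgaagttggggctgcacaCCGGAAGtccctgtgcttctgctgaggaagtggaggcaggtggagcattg
Srsf6 had 2 GC boxes and no ETS motif. Srsf5 had 3 GC boxes and 2 ETS motifs, of which 1 shares a base with a GC box. Srsf4 had 1 of each, Sf3a1 had 2 GC boxes and 1 ETS motif, and the stretch of Hnrnpf had 1 ETS motif and no GC box. Hnrnpf has 3 further windows, which start inside the gene and are not printed, and each of them held a GC box. Srsf4 has 2 further windows. A match describes these letters only and does not show that a factor binds there.

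The medians of the 28 arrays lay between 5.46 and 5.63, and arrays correlated with each other at 0.968 to 0.995 over all genes. Crebbp, the gene for CBP, ranged from 8.97 to 9.77 (median 9.42) in arrays labelled cbp+/- and from 8.68 to 9.70 (median 9.32) in wild-type arrays, a difference of 0.21 ± 0.12 without a block (limma's adjusted p = 1.00). In a fit that has the array sets described next as a block, it was 0.21 ± 0.05 (limma's adjusted p = 0.0660), so Crebbp was not called and its difference had the sign opposite to a loss. The labels do not say which part of the transcript the mutation removes. Markers of hippocampal neurons and glia were above the array median for 8 of 8 pyramidal neuron, 4 of 5 dentate granule neuron, 5 of 6 interneuron, 6 of 6 astrocyte, 5 of 5 oligodendrocyte and 4 of 6 microglia genes measured. Choroid plexus markers, from tissue beside the hippocampus, were 1.37 to 1.78 above the median array in 3 arrays (mean log2 deviation of 10 genes) and below 0.9 in the other arrays. In bulk tissue, fewer cells of a type and less RNA per cell cannot be told apart.

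The arrays fall into 4 sets that matter for these genes. Earlier work on the same values found them, and no label names them: set 1 is the 4 naive arrays, and sets 2, 3 and 4 each hold the vehicle controls numbered 3, 4 or 5 together with replicates 1, 2 or 3 of the other 6 groups. In the median member, 72.7% of the variance over the 28 arrays lay between sets, against 43.8% in the median of all genes. The share was over 50% in 48 of 58 members (82.8%) and in 43.4% of all genes. The 8 groups accounted for a median of 13.5% of the variance in members and 18.3% in all genes.

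Snrpb2, a protein of the U2 snRNP, had the highest share, 96.3%. Its means in sets 1 to 4 were 8.73, 8.11, 7.88 and 9.24. Hnrnph2, a regulator that binds G-rich RNA, followed at 92.1%, with set means of 9.84, 8.55, 9.13 and 9.61. Hnrnpm, a regulator of alternative exons, had 92.0%. The set mean was lowest in set 2 for 25 members and in set 3 for 21, and highest in set 4 for 24 and in set 1 for 20. The range of the set means over all arrays had a median of 0.48 (0.07 to 1.36). It exceeded the size of the TSA difference without a block in all 58 members. Set 1 holds no TSA array while the other sets do, so this range includes part of the TSA difference itself. In arrays without TSA, Srsf6 had set means of 8.95, 8.79, 8.61 and 8.88, which span less than its TSA difference of -0.44. What the sets stand for was not tested. The comparisons are therefore given without a block and with array set as a block, which lowered the median residual SD from 0.24 to 0.12 in members and from 0.18 to 0.13 in all genes.

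**Figure D1:**
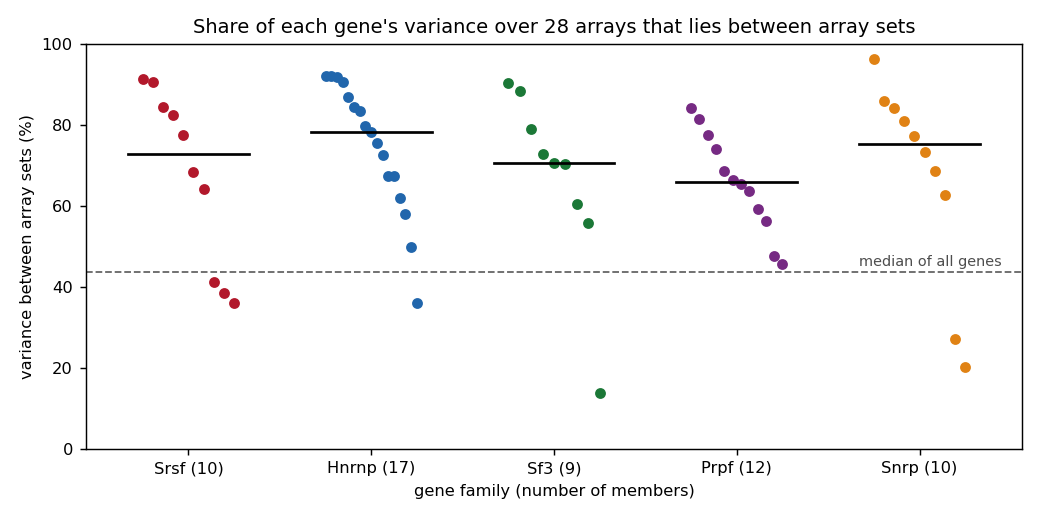
Share of the variance over 28 arrays that lies between the 4 array sets (percent, y axis) for each of the 58 members, grouped by gene family (x axis). Each point is a gene, the bars are the family medians and the dashed line is the median of all genes, 43.8%; 48 of 58 members lie above 50%.

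TSA against no TSA was compared over all 4 combinations of genotype and housing (12 against 16 arrays). Set 1, the naive arrays, holds no TSA array, so with array set as a block it does not enter the averaged difference. Without a block Srsf6 fell, and no other member was called, where called means below 0.05 in limma after adjustment over all 19938 genes. In the fit with array set as a block, Srsf6, Srsf5, Srsf4 and Sf3a1 fell and Hnrnpf rose. The calls were 1 of 58 members (1.72%) without a block, where 0.662% of all genes were called, and 5 of 58 (8.62%) with it, where 4.51% were called. For lower calls alone the background was 0.216% without and 1.85% with the block, and for higher calls 0.446% and 2.66%. Most other members had small negative differences. Without a block 39 of 58 were negative, with a median of -0.06 against 0.01 over all genes, and with the block 40 were negative, with a median of -0.03 against 0.00.

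Srsf6, an SR protein, was the member with the largest difference. In wild-type standard-cage arrays without TSA its log2 values were 9.02 and 8.96 (naive) and 8.64, 8.58 and 8.56 (vehicle), and with TSA they were 8.33, 7.81 and 8.49. After novelty, wild-type values were 8.88, 8.57 and 8.99 with vehicle and 8.49, 8.06 and 8.83 with TSA. In standard-cage arrays labelled cbp+/- they were 8.94 and 8.89 (naive) and 8.78, 8.61 and 8.97 (vehicle), and 8.53, 8.30 and 8.42 with TSA. The TSA values of both standard-cage groups lay below all of their controls, whereas the wild-type novelty groups overlapped. After novelty in arrays labelled cbp+/-, values were 8.85, 8.70 and 8.99 with vehicle and 8.29, 8.38 and 8.56 with TSA, which did not overlap. Over all arrays, 11 of 12 TSA arrays lay below the lowest of the 16 others. The difference was -0.44 ± 0.08 (SE; 95% interval -0.61 to -0.26, limma's adjusted p = 0.0115), and -0.39 ± 0.06 (-0.50 to -0.27, limma's adjusted p = 0.000146) with the block, a change of -23.5%. The naive arrays were among the highest. With vehicle controls only, the difference was -0.39 ± 0.09 and limma's adjusted p was 0.0956 without the block.

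Srsf5, an SR protein whose own exons are alternatively spliced, was at 8.81 to 10.23 (median 9.51) in TSA arrays and at 9.33 to 10.31 (median 9.94) in the others. The ranges overlapped widely, and 4 TSA arrays lay below the lowest of the others. Much of the range was between sets: in the standard-cage wild-type TSA arrays the values were 9.20, 9.51 and 10.23 for sets 2, 3 and 4, beside vehicle controls at 9.41, 9.66 and 10.22. The difference was -0.33 ± 0.15 without a block (limma's adjusted p = 0.540) and -0.27 ± 0.05 with it (95% interval -0.36 to -0.17, limma's adjusted p = 0.00105). A further cluster of Srsf5 gave -0.36 without and -0.30 with the block.

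Srsf4, a large SR protein, was at 9.14 to 9.49 (median 9.33) with TSA and 9.32 to 9.70 (median 9.47) without. It differed by -0.16 ± 0.05 without a block (limma's adjusted p = 0.114) and by -0.16 ± 0.04 with it (95% interval -0.24 to -0.09, limma's adjusted p = 0.0101). Of the 10 Srsf genes, 3 fell with the block and none rose, and 8 were negative without it, with a family median of -0.07. The other 7 lay between -0.07 (Srsf1, the founding SR protein) and 0.04 (Srsf9) with the block, with all 95% intervals inside -0.25 to 0.25. By other clusters, of lower mean, Srsf10 had -0.12 and Srsf3 had -0.04 and -0.08 with the block.

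Sf3a1, a subunit of the SF3A complex of the U2 snRNP, was at 6.97 to 8.19 (median 7.50) with TSA and 7.45 to 8.25 (median 7.71) without. The difference was -0.20 ± 0.11 without a block (limma's adjusted p = 0.656) and -0.25 ± 0.05 with it (95% interval -0.35 to -0.14, limma's adjusted p = 0.00512). None of the other 8 Sf3 genes was called in either fit. With the block, its partners Sf3a2 and Sf3a3 had -0.02 ± 0.05 and -0.05 ± 0.05, and Sf3b1, the branch-point subunit, had -0.06 ± 0.04. Sf3b4, another U2 subunit, had 2 clusters of opposite sign (0.10 and -0.14 with the block).

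Hnrnpf, a regulator that binds G-rich RNA, was the member that rose. It was at 9.34 to 10.04 (median 9.92) with TSA and 8.99 to 9.99 (median 9.77) without, with 2 TSA arrays above the highest of the others. The difference was 0.10 ± 0.13 without a block (limma's adjusted p = 0.958) and 0.16 ± 0.04 with it (95% interval 0.07 to 0.25, limma's adjusted p = 0.0325). Its 3 other clusters gave 0.16, 0.16 and 0.06 with the block. Wild-type control replicate 3, at 8.99, lay far below the other 4 controls of its group (9.76 to 9.97). It is the set 2 array of that group, and the means of Hnrnpf in sets 1 to 4 were 9.89, 9.27, 9.82 and 9.95. With the block, the call was lost in 11 of the 28 fits that leave out 1 array, and without the 3 arrays with high choroid plexus markers (limma's adjusted p = 0.0817). The arrays whose loss ended it were wild-type control 3, cage TSA 1 and 2, novelty vehicle 1 and 3 and novelty TSA 2, and, labelled cbp+/-, control 4, cage TSA 1 and 2, novelty vehicle 2 and novelty TSA 1. The other 16 Hnrnp genes were not called, and with the block 13 of the 17 were negative, with a median of -0.07. Hnrnpm had -0.15 ± 0.05 (limma's adjusted p = 0.0706) and Hnrnpu, a scaffold protein of chromatin and nuclear RNA, -0.10 ± 0.04 (limma's adjusted p = 0.204).

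No Prpf or Snrp gene was called in either fit. With the block the 12 Prpf genes lay between -0.11 (Prpf38a) and 0.07 (Prpf3, a tri-snRNP protein), with a median of -0.02. Prpf4b, a kinase of spliceosomal proteins, had -0.10 ± 0.07 without a block (limma's adjusted p = 0.813). The 10 Snrp genes lay between -0.09 (Snrpe) and 0.06 (Snrpb), both Sm ring proteins, with a median of -0.01. Snrpb had 0.09 ± 0.07 without a block (limma's adjusted p = 0.865). Over the 53 members not called with the block, all 95% intervals lay inside -0.5 to 0.5 and 50 inside -0.25 to 0.25, and larger differences lie outside them.

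**Figure D2:**
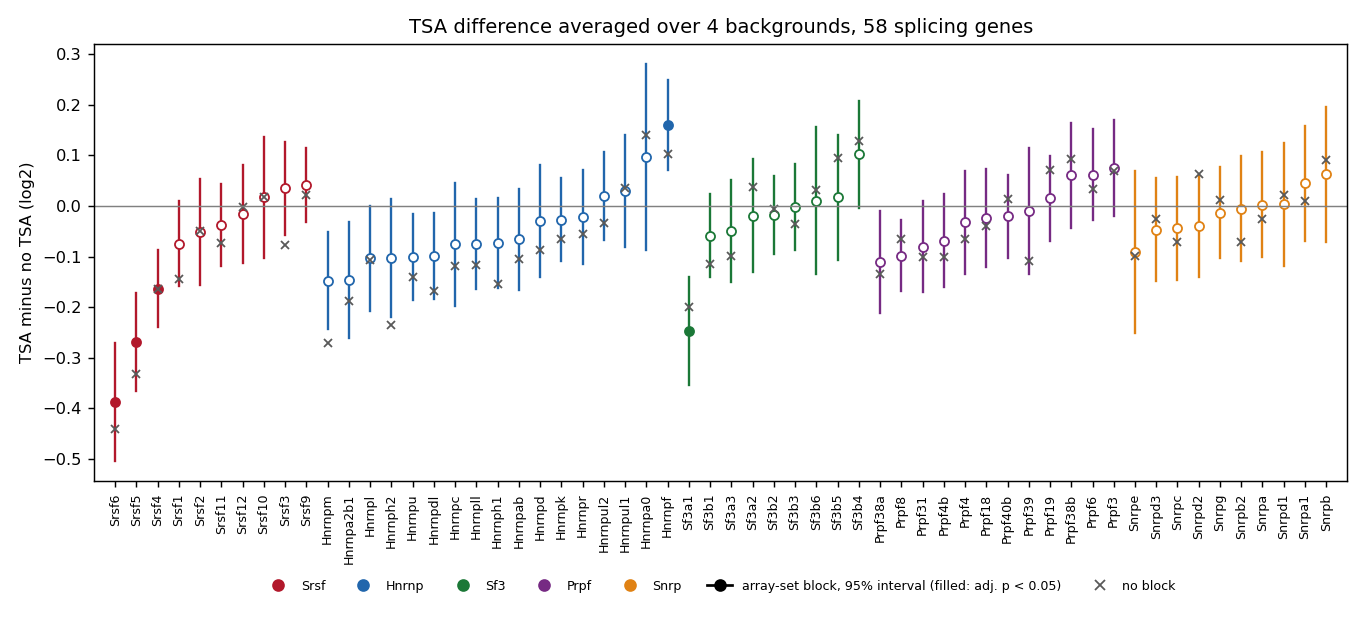
Difference between TSA and no TSA (log2, y axis) for the 58 members (x axis), grouped by family, in the fit with array set as a block, with 95% intervals as lines, filled points for called members and the fit without a block as crosses. Srsf6 is the most negative at -0.39, and Hnrnpf the most positive called member at 0.16.

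Matched arrays of a set (same genotype, housing and set, with and without TSA) give 12 pairs. Srsf6 was lower with TSA in 12 of 12 pairs (-0.77 to -0.08, median -0.36) and Srsf4 in 12 of 12 (-0.37 to -0.01, median -0.14). Srsf5 was lower in 11 of 12 (-0.68 to 0.02), Sf3a1 in 10 of 12 (-0.69 to 0.04), and Hnrnpf was higher in 10 of 12 (-0.11 to 0.40). The pairs share their set with the block and are the same arrays as in the fit. Within sets 2, 3 and 4, the difference was -0.38, -0.48 and -0.30 for Srsf6, and -0.41, -0.18 and -0.22 for Srsf5. It was -0.17, -0.13 and -0.18 for Srsf4, and -0.16, -0.38 and -0.20 for Sf3a1. Hnrnpf gave 0.20, 0.23 and 0.05. With set 2 left out, limma's adjusted p with the block was 0.117 for Srsf5 and 0.149 for Srsf4, and with set 3 left out it was 0.141 for Sf3a1 and 0.0641 for Srsf4. With set 4 left out it was 0.0642 for Srsf4. For Hnrnpf it was 0.0552, 0.248 and 0.310 with set 1, 2 or 3 left out, and of 8 alternatives to the blocked fit Hnrnpf was called in 2. Among the 8, leaving out set 1 and keeping vehicle controls only are the same fit, in which the difference stayed at 0.16. Among the 58 members, 21 were lower and 4 were higher with TSA in all 3 sets, and the matching count over all genes is not given.

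**Figure D3:**
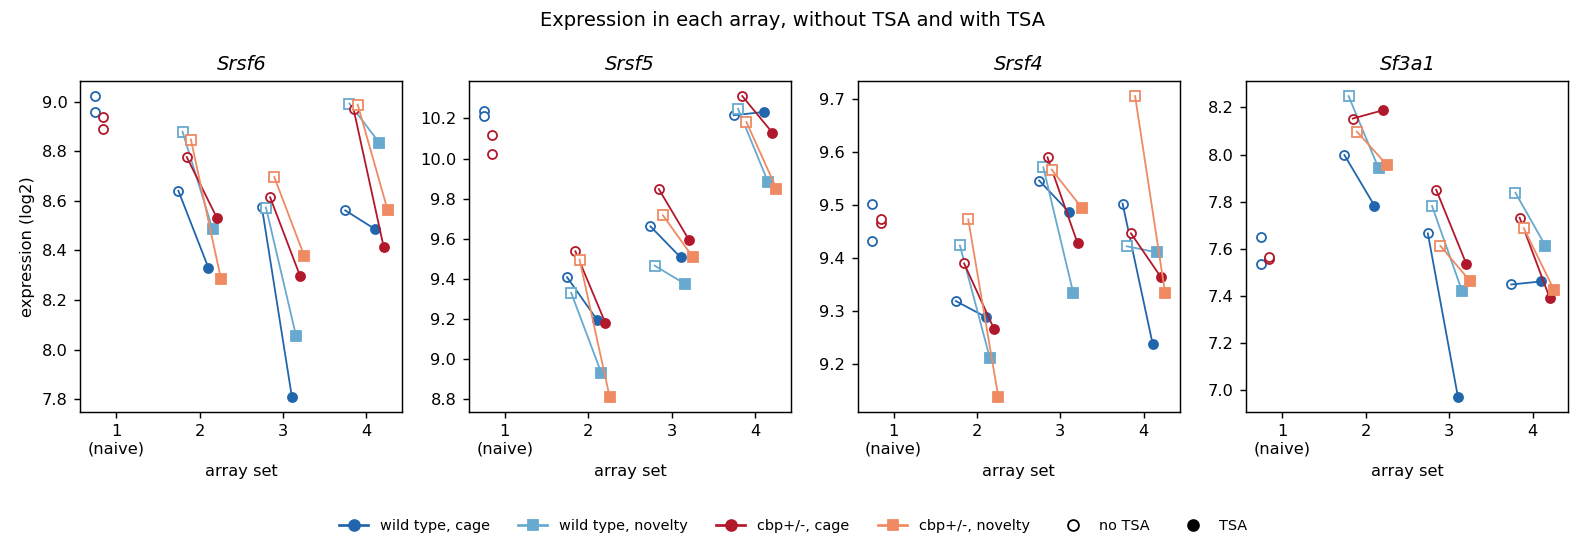
Log2 values (y axis) of Srsf6, Srsf5, Srsf4 and Sf3a1 in all 28 arrays by array set (x axis), with open symbols for no TSA and filled for TSA. Lines join the 12 pairs of the same genotype, housing and set, and all 12 lines of Srsf6 and of Srsf4 go down.

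Cell type markers were set beside the TSA difference. All 4 endothelial genes were lower with TSA and all 10 choroid plexus genes higher without a block, though none was called. The mean endothelial deviation ranged from -0.47 to 0.25 in TSA arrays and from -0.30 to 0.32 in the others, and that of choroid plexus from -0.18 to 1.70 and from -0.20 to 1.78. With the block all 5 oligodendrocyte genes were lower, with a median of -0.12 (3 of 5 at an unadjusted p under 0.05), beside medians of -0.11 for endothelial and 0.11 for choroid plexus genes. The mean oligodendrocyte deviation ranged from -0.31 to 0.27 in TSA arrays and from -0.22 to 0.36 in the others. In that fit 1 of 8 pyramidal and 1 of 5 granule neuron markers were called, both lower, and no marker of the other lists. Their part in the results was not tested. Without the 3 arrays with high choroid plexus markers, 4 members were called with the block. The share of all genes called in that fit is not given, so the count alone does not show a part of these markers.

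In each single combination of genotype and housing, no member was called by limma with or without the block. The all-gene background there was 0% without a block, and 0.0401% (wild type, cage; 0.015% higher), 0.0251% (cbp+/-, cage), 0.0702% (wild type, novelty; 0.0602% higher) and 0.0201% (cbp+/-, novelty) with it. At an unadjusted p under 0.05, 2, 1, 0 and 2 members were found in that order without a block, and 5, 3, 8 and 3 with it. The shares with the block were 8.62%, 5.17%, 13.8% and 5.17% of members, against 8.20%, 6.61%, 11.3% and 6.10% of all genes. Without it, 5.17%, 2.45%, 3.26% and 1.78% of all genes had such a p. Without a block, Srsf6 differed by -0.54 ± 0.16 in wild-type cage arrays and -0.42 ± 0.16 in cbp+/- cage arrays, whose controls include the naive arrays. It differed by -0.36 ± 0.18 in wild-type novelty arrays and -0.44 ± 0.18 in cbp+/- novelty arrays. Over 11 alternatives to that fit, Srsf6 had -0.62 to -0.38 in wild-type cage arrays and -0.50 to -0.32 in cbp+/- cage arrays. In wild-type novelty arrays it had -0.37 to -0.29. Srsf4 had its largest difference after novelty in arrays labelled cbp+/-, -0.26 ± 0.10. Of the 58 members, 22 were lower and 6 higher in all 4 combinations without a block. The matching count over all genes is not given. These combinations use separate controls but share array sets. With array quality weights, 17 members (29.3%) were called in wild-type cage arrays, 15 lower and 2 higher, and so were 19.4% of all genes.

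Whether the TSA difference depended on genotype or on novelty was tested as interactions, and no member and no gene was called by limma for any of them, with or without the block (0% of all genes). For TSA by genotype, 0 members had an unadjusted p under 0.05 without a block and 4 (6.90%) with it, where 8.09% of all genes did. For TSA by novelty and for the 3-way term, 0 members did in either fit. Over all genes, 461, 247 and 117 did for the 3 terms without a block, and 1613, 565 and 446 with it. The member with the smallest p by genotype was Snrpa, a U1 snRNP protein (-0.20 ± 0.10). By novelty it was Snrpd2, an Sm protein (-0.21 ± 0.20), and in the 3-way term Snrpb (0.37 ± 0.29), all without a block. Over 10 alternatives to that fit, the novelty term of Snrpd2 lay between -0.39 and -0.005. For Srsf6 the TSA difference in arrays labelled cbp+/- minus that in wild-type arrays was 0.02 (95% interval -0.20 to 0.24 with the block). After novelty minus cage it was -0.02 (-0.25 to 0.22). For Srsf5 these were -0.08 (-0.26 to 0.11) and -0.16 (-0.35 to 0.04), so the intervals hold differences of either sign.

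Novelty against the standard cage was compared over genotype and drug (12 against 16 arrays). Prpf40b, a homolog of a yeast U1 snRNP protein, fell when array set was a block, and it was the only gene of all 19938 that was called lower in that fit. No member was called by limma without the block. At an unadjusted p under 0.05 there were 1 member (1.72%) without and 11 (19.0%) with the block, against 3.20% and 8.21% of all genes. The background of limma calls was 0.191% without and 0.476% with the block, of which 0.471% was higher. Prpf40b was at 6.53 to 7.11 (median 6.84) after novelty and 6.79 to 7.26 (median 6.97) in the cage, which overlapped. It differed by -0.14 ± 0.07 without a block (limma's adjusted p = 1.00) and by -0.18 ± 0.04 with it (95% interval -0.26 to -0.09, limma's adjusted p = 0.0332). It was lower in 12 of 12 matched pairs (-0.29 to -0.07, median -0.17), and by -0.17, -0.18 and -0.17 in sets 2, 3 and 4. The call was lost when any 1 of the 4 array sets was left out, and in 15 of the 28 fits that leave out 1 array (limma's adjusted p 0.0107 to 0.0830 over the 28). Set 1 holds no novelty array, and without it the difference stayed at -0.18. Srsf5 was next, at -0.17 ± 0.05 (limma's adjusted p = 0.137), and Srsf6 had 0.13 ± 0.06 (limma's adjusted p = 0.526), opposite in sign to its TSA difference.

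**Figure D4:**
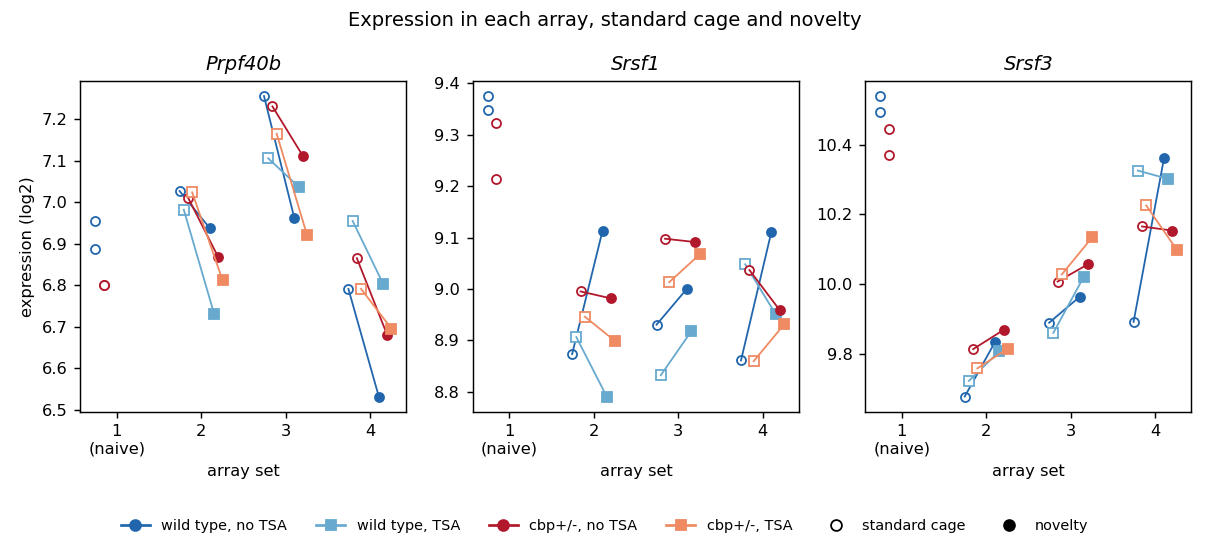
Log2 values (y axis) of Prpf40b, Srsf1 and Srsf3 in all 28 arrays by array set (x axis), with open symbols for the standard cage and filled for novelty, and lines joining the 12 pairs of the same genotype, drug and set. All 12 lines of Prpf40b go down, and the 4 naive arrays (set 1) are the highest of all arrays for Srsf1 and Srsf3.

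Genotype was compared over housing and drug (14 against 14 arrays). No member was called by limma with or without the block, with backgrounds of 0% and 0.662% of all genes (518 genes without the block had an unadjusted p under 0.05). At an unadjusted p under 0.05 there were 0 members without and 12 (20.7%) with the block, where 11.9% of all genes had such a p. More members were higher than lower in arrays labelled cbp+/- (43 of 58, median 0.03 against -0.01 over all genes). Prpf4b had the smallest p without a block. It was at 8.37 to 8.86 (median 8.77) in arrays labelled cbp+/- and 8.34 to 8.82 (median 8.58) in wild type, a difference of 0.12 ± 0.07 (limma's adjusted p = 1.00; 0.197 with the block). Control replicate 3 lay far below the other controls of its group in both genotypes, at 8.34 in wild type (others 8.68 to 8.82) and 8.52 in cbp+/- (others 8.76 to 8.84). It is the set 2 array of each control group, and the means of Prpf4b in sets 1 to 4 were 8.81, 8.43, 8.71 and 8.71.

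Vehicle-injected and naive standard-cage controls (6 against 4 arrays) were compared for both genotypes together. Srsf1 and Srsf3, another SR protein with a poison exon, fell in vehicle-injected arrays, and Snrpd2 rose. These were 3 of 58 members, with 2.41% of all genes called (1.08% higher, 1.32% lower). The naive arrays are array set 1, so injection and array set cannot be told apart. Srsf1 was 9.38, 9.35, 9.32 and 9.21 in naive arrays and 8.86 to 9.10 in vehicle arrays (median 8.96), a difference of -0.35 ± 0.06 (limma's adjusted p = 0.00347). Srsf3 was 10.54, 10.49, 10.44 and 10.37 in naive arrays and 9.68 to 10.17 (median 9.89) in vehicle arrays, -0.56 ± 0.13 (limma's adjusted p = 0.0240). Snrpd2 was 7.82, 7.80, 7.67 and 7.69 in naive arrays and 8.10 to 8.55 (median 8.19) in vehicle arrays, 0.52 ± 0.13 (limma's adjusted p = 0.0320). The groups did not overlap for any of the 3. Srsf1 was called whichever array was left out, but with any 1 of the 4 naive arrays left out Srsf3 and Snrpd2 were not. Srsf3 was also lost without control 3 of either genotype, and Snrpd2 without control 5 of either. Prpf39, a U1 snRNP-associated protein, came next, at -0.50 ± 0.13 (limma's adjusted p = 0.0505). Srsf1 differed between TSA and no TSA by -0.14 ± 0.06 without a block and -0.07 ± 0.04 with it, and Srsf3 by -0.08 ± 0.10 and 0.03 ± 0.04. Other clusters of Srsf3 gave -0.12 and -0.17 without the block and -0.04 and -0.08 with it.

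A wider list of 142 other splicing genes (further snRNP particle proteins, snRNP assembly factors, SR protein kinases, other regulators and the exon junction complex) was set beside the members for TSA. Coil, the scaffold of the Cajal body, where snRNPs mature, was the only one called by limma without a block (-0.31 ± 0.07, adjusted p = 0.0205). In the blocked fit, 12 of the 142 (8.45%) were called, 10 lower and 2 higher, against 4.51% of all genes. Coil was at -0.30 ± 0.06 (limma's adjusted p = 0.00423). By list, 2 of 48 particle proteins, 1 of 13 assembly factors and 1 of 7 SR protein kinases fell, and of 69 other regulators 6 fell and 2 rose, while none of 5 exon junction genes was called. Those named here other than Coil were chosen after their values were seen. Among the regulators, Rbm39, an SR-related protein, had -0.23 ± 0.05 and Tra2b, an SR-like exon activator, -0.17. The kinase Clk4, which phosphorylates SR proteins, had -0.18. The risers were Srrm4, the neuronal microexon activator (0.22 ± 0.05), and Ptbp3, a PTB paralog (0.19 ± 0.04).

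**Figure D5:**
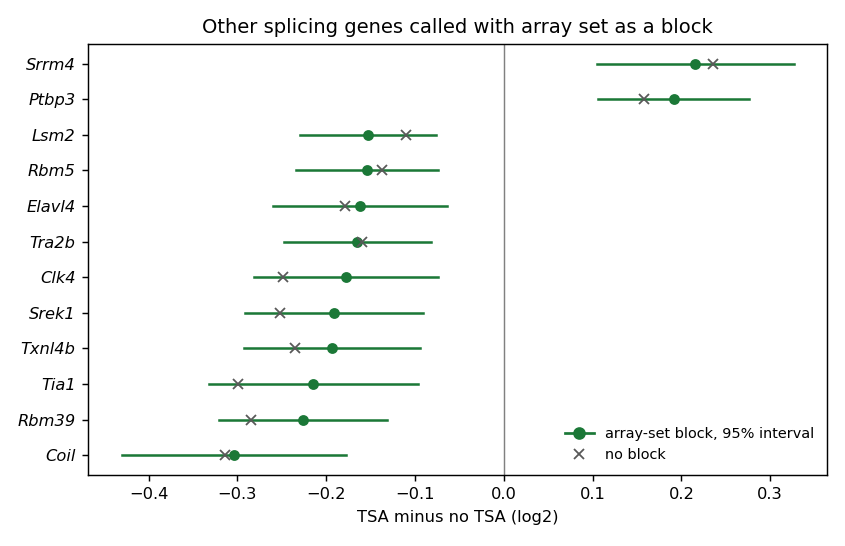
TSA minus no TSA (log2, x axis) for the 12 splicing genes outside the 58 members that were called with array set as a block, with 95% intervals as lines and the fit without a block as crosses. 10 lie below 0 and 2, Srrm4 and Ptbp3, above.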

How the data were processed

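Hippocampal RNA was hybridised to Affymetrix Mouse Gene 1.0 ST arrays. The deposited log2 values were used; the authors made them with RMA per the submitters' processing notes and GeneSpring GX 11 per the labels' protocols, and no genome build is named for them. Arrays give no counts, so the number of arrays limits the precision. Gene names came from the platform's table: 21789 of 35556 clusters had 1 symbol, 1621 several and 12146 no entry.

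One limma model (limma 3.58.1, R 4.3.3) was fitted over 28 arrays and 8 groups, two-sided, with Benjamini-Hochberg adjustment over 19938 genes. Alternatives were the array set or replicate number as a block, vehicle controls only, array weights, repeated quantile normalization, other filters and row rules, and each array left out. Among the TSA and novelty groups, arrays with the same number deviated together (r = 0.52 to 0.80, 45 pairs). Controls followed another numbering (-0.58 to 0.23), which the array sets match. The sets were found in these same values, so this match is not separate evidence for them. The scripts were tested on simulated data. Members and lists were chosen with earlier results of these data known. A rule named 13 members: those called in a comparison (largest first), or the smallest p where none was, and the smallest p of each family for TSA. Other members given with values, such as Hnrnpm, Prpf39 and Snrpb2, are outside this rule and were picked with their values known.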

Additional observations from a re-analysis of the deposited data

Results flagged for a closer look

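The 13 members named by the rule were each looked at in the 2 groups of 5 arrays, the standard-cage controls of each genotype. Of these 26 sets of values, 3 held an array far from the rest. Chance marks about 1 in 20, but the 26 reuse the same 10 arrays and are not independent. Hnrnpf was 8.99 in wild-type control replicate 3, against 9.76 to 9.97 in the other 4 controls. Prpf4b was 8.34 in the same array, against 8.68 to 8.82. Prpf4b was also 8.52 in control replicate 3 labelled cbp+/-, against 8.76 to 8.84. Both arrays are in array set 2, and each is the set 2 array of its control group. Set 2 as a whole had the lowest set mean for both genes, 9.27 for Hnrnpf and 8.43 for Prpf4b. The second array is also 1 of the 3 arrays with high choroid plexus markers.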

How the results depend on the processing

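Counts given here without a share of all genes do not tell a change in the members from a change over all genes. For TSA, the count of members called was 1 without a block (0.662% of all genes were called) and 5 with array set as a block (4.51%). It was 0 with vehicle controls only and 4 with vehicle controls and array set as a block. For novelty it was 0 and, with array set as a block, 1. With array quality weights, 17 members (29.3%; 2 higher and 15 lower) and 19.4% of all genes were called for TSA in wild-type cage arrays in place of 0. With array set as a block for TSA, 2 were called without array set 2 and 2 without array set 3. For novelty, 0 were called without array set 1, 2, 3 or 4. Leaving out each array gave 1 to 1 for TSA, 4 to 6 for TSA with the block, 0 to 1 for novelty with the block (0 in 14 of 28), and 1 to 4 for vehicle against naive. Hnrnpf lost its call in 11 of these 28 fits and Prpf40b in 15. Srsf6, Srsf5, Srsf4 and Sf3a1 kept theirs in all 28 with the block. Without set 2, limma's adjusted p was 0.117 for Srsf5 and 0.149 for Srsf4; without set 3 it was 0.141 for Sf3a1 and 0.0641 for Srsf4. Hnrnpf kept its call in 2 of 8 alternatives to the blocked fit (limma's adjusted p 0.0198 to 0.310, with 0.248 without set 2 and 0.310 without set 3). Among the 8, vehicle controls only and without array set 1 are the same fit. With the labels' replicate number as a block, 1 member was called for TSA: Srsf6 at -0.48 ± 0.08 (limma's adjusted p = 0.00155). No gene named by the rule changed sign under the alternatives in the comparison it was named for. Between the fits without and with the array-set block, the difference changed sign in 7 of 58 members for TSA, Srsf3 and Snrpd2 among them, and in 18 for novelty. These counts use the cluster kept for each gene, and other clusters of Srsf3 stayed negative for TSA. The precision is limited by 3 to 5 pooled arrays a group and by the array sets, which carry no label.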
